A study of Mus musculus with 41 samples.

Results

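The mitochondrial respiratory chain was followed through 83 genes, of 24511 genes in the expression table of mouse liver and liver tumours. Members were taken by symbol: every gene whose name begins with Nduf followed by a, b, c, s or v and a number, the Sdha to Sdhd genes, all names beginning with Uqcr or Atp5, and the Cox genes numbered 4 to 8 that carry a subunit letter. This gave 36 genes of complex I, 4 of complex II, 8 of complex III, 18 of complex IV and 17 of complex V. No gene encoded by the mitochondrial genome is listed in the table used here. Of the 83 members, 75 had a mean value of 3 or more and were tested.

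Complexes I to IV pass electrons from NADH and succinate to oxygen and, except complex II, pump protons across the inner mitochondrial membrane. Complex V, the ATP synthase, uses the resulting gradient to make ATP. Most subunits are encoded in the nucleus, and hepatocytes, which are rich in mitochondria, rely on this chain for gluconeogenesis, urea synthesis and the oxidation of fat. A pair of genes chosen by symbol, Atp5s and Atp5sl, are now named Dmac2l and Dmac2 and are not regarded as structural subunits. Ndufa4, named for complex I, is now placed in complex IV. Cox7a2l, also called Scaf1, can link complexes III and IV into supercomplexes, which were not measured in these mice.

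RNA came from whole liver or tumour of male C57BL/6 mice. The B6 NC, MupHe NC, IgAkMup NC and CD8kMup NC groups held livers labelled healthy. B6 HFD control and IgAkCLM HFD control held fatty livers labelled healthy, from mice on a high-fat diet (HFD), and MupHe NASH and IgAkMup NASH held livers with steatohepatitis (NASH) on that diet. Tumours (HCC) on the high-fat diet came from MupHe, IgAkMup and CD8kMup mice. Each group had 3 libraries, except 4 each in MupHe HCC and IgAkMup HCC, which made 35 libraries in 11 groups. The genotype names are kept as the labels give them, because no key to their alleles, no age and no feeding time stands beside them. Nothing says that the replicates are separate animals, so p-values measure the spread between these samples, which may be technical.

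Values are regularized log2 (rlog) values of the authors, so a difference of 1 is a change of 2-fold. The depth of the libraries is unknown, since no counts were used. Adjusted p-values are from limma over 12337 genes, with a threshold of 0.05, and errors of differences are standard errors. Tumour libraries MupHe HCC 3, IgAkMup HCC 5 and IgAkMup HCC 9 stood apart on the second principal component over all genes. Columns of the NC groups are named in another form, with the mark NC, and have other processing notes than the HFD groups, so diet and handling cannot be told apart between NC and HFD-fed groups. Among the HFD-fed groups, B6 HFD control, IgAkMup NASH and all tumours share the tag SS, and IgAkCLM HFD control and MupHe NASH share the tag Tri with the NC groups.

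Promoters were looked at because factors that bind NRF1, ETS, ERR and YY1 motifs are known to act on many of these genes. RefSeq promoters (GRCm38.p6, 250 bases before to 50 bases after the start) were matched for 69 members, of which 64 were among the tested genes. The 3 stretches here were chosen to show a member that fell strongly in IgAkMup tumours and holds an ERR motif (Atp5g3), a member with an NRF1 motif at its edge (Cox6a1), and the member that rose where most fell (Cox7a2l, with none of the 4 motifs in its window). Each is 100 bases on the minus strand, inside its RefSeq promoter window, upstream of the start and outside GENCODE exons. They are written in the direction of the gene, with any motif in capitals. RefSeq's Atp5g3 gene reaches farther upstream, to 73912464, so that stretch lies inside its outer bounds. They lie at chr2:73911327-73911426, chr5:115349021-115349120 and chr17:83514334-83514433.
Atp5g3: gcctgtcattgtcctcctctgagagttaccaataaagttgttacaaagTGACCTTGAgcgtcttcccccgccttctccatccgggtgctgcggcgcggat
Cox6a1: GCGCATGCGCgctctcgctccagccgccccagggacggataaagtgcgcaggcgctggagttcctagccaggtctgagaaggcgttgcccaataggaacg
Cox7a2l: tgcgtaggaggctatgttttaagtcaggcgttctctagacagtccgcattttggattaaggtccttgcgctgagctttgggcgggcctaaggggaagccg

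Motifs were searched on both strands as fixed letters. The NRF1 letters GCATGCGC were found in 8 of the 64 promoters (12.5%), against 3.05% of all 27025 RefSeq promoters and 5.90% of those of the tested genes. These letters were shortened after promoter matches had been seen: with 1 letter more, CGCATGCGC, 6 members matched (9.38%, against 1.95% and 4.08%), and a longer form still matched fewer. In Cox6a1 they overlap on both strands and make up the capitals. The ERR letters TCAAGGTCA, read on the other strand as the capitals of Atp5g3, were found in 2 promoters (3.13%), those of Sdhd and Atp5g3, against 0.466% of all and 0.313% of the tested genes. ETS letters (CCGGAAG) stood in 15 promoters (23.4%, against 9.93% and 19.8%). The YY1 letters AAGATGGCG, also shortened, stood in 8 (12.5%, against 1.64% and 3.61%). A match is a description of letters and not a binding site, and 37 of the 64 promoters held none of the 4 motifs.

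Tumours of IgAkMup mice had lower transcript levels of nearly the whole chain than IgAkMup livers with NASH. Of 75 members, 69 fell and 1 rose, where 20.7% of all tested genes fell and 23.2% rose. The median difference of the members was -0.73, or 0.601-fold, beside 0.04 over all tested genes. Every complex took part: 35 of 36 genes of complex I fell, 3 of 4 of complex II, 8 of 8 of complex III, 10 of 12 tested of complex IV and 13 of 15 tested of complex V. The mean over the 75 members lay between 9.11 and 9.27 in the 4 tumours and between 9.67 and 10.03 in the 3 NASH livers, so the groups did not overlap. In bulk tissue, fewer cells of a type and less RNA per cell cannot be told apart.

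**Figure D1:**
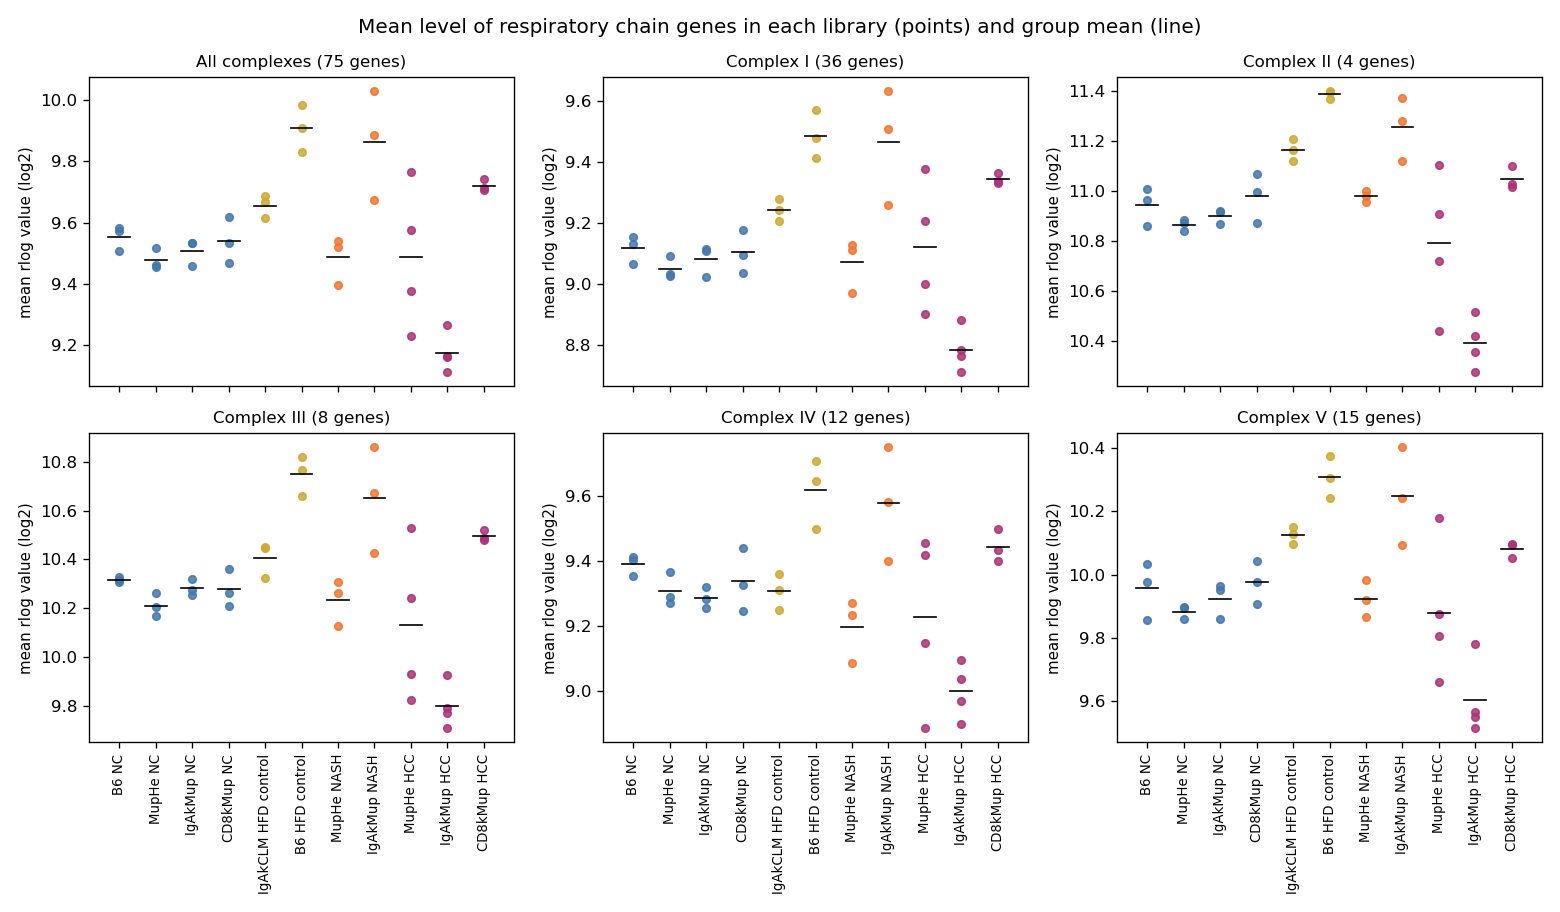
Mean rlog value (log2) over the tested genes of all complexes and of each complex (y axis, not starting at 0) in each of 11 groups (x axis); points are libraries and lines group means. The 4 IgAkMup HCC libraries lie between 9.11 and 9.27 over all 75 genes, below the NC libraries, and the 4 MupHe HCC libraries spread from 9.23 to 9.76.

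In complex II, which oxidises succinate and also serves the citric acid cycle, the flavoprotein Sdha had values of 12.24 in each of the 3 IgAkMup NASH livers and of 10.52, 11.20, 11.26 and 11.05 in tumours 5, 7, 8 and 9. All 4 tumours were below all 3 livers, by 1.23 ± 0.16 on average (-1.23, adjusted p = 1.2e-06). Its iron-sulfur partner Sdhb fell by 1.00 ± 0.12 (adjusted p = 1.7e-07), and the membrane anchor Sdhd fell by 0.92 ± 0.12 (adjusted p = 1.4e-06). The other anchor, Sdhc, did not pass (-0.31 ± 0.14, adjusted p = 0.088): tumours 5, 7 and 9 stood at 10.29, 10.30 and 10.32, and tumour 8 at 10.78, inside the range of 10.59 to 10.86 of the NASH livers.

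Complex III, which hands electrons from ubiquinol to cytochrome c, fell as a whole. Uqcrfs1, the Rieske iron-sulfur protein, stood at 11.25, 11.07 and 10.94 in the NASH livers and at 9.80, 10.27, 9.84 and 10.32 in the tumours. These groups were apart by 1.03 ± 0.18 with no overlap (adjusted p = 3.6e-05). Uqcrb, a subunit near the ubiquinone site, fell by 1.05 ± 0.16 (adjusted p = 7.2e-06). The core subunits Uqcrc1 and Uqcrc2 had differences of -0.79 ± 0.12 and -0.96 ± 0.15.

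Among the subunits of complex I that carry its redox centres, Ndufs1 differed by -0.62 ± 0.14 (adjusted p = 0.0011). The accessory subunits Ndufs5 (-0.98 ± 0.14, adjusted p = 2.7e-06) and Ndufs4 (-0.96 ± 0.13, adjusted p = 2.2e-06) had the differences farthest from 0 in the complex. Ndufs5 read 7.92, 7.93 and 7.38 in NASH and 6.74, 6.76, 6.86 and 6.71 in tumours. The exception was Ndufa2, another accessory subunit, at -0.21 ± 0.13 (adjusted p = 0.17).

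In complex IV, cytochrome c oxidase, 10 members fell and 1 rose. Cox5a fell by 0.95 ± 0.12 (adjusted p = 7.1e-07), and Cox4i1, a form of subunit 4, fell by 0.55 ± 0.13 (adjusted p = 0.0012). Cox7a2l went the other way, with 9.50, 9.10 and 9.13 in NASH and 9.72, 9.67, 9.58 and 9.58 in tumours. It was higher in every tumour than in any NASH liver, by 0.40 ± 0.10 (adjusted p = 0.0026, and 0.060 with these groups fitted alone). The muscle and heart form Cox7a1 did not pass (-0.03 ± 0.26, adjusted p = 0.93).

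In complex V, the catalytic subunits Atp5a1 and Atp5b fell by 0.70 ± 0.15 and 0.63 ± 0.12 (adjusted p = 0.0005 and 0.00019). Atp5g1 and Atp5g3 encode the same mature c subunit of the membrane ring. Atp5g3 read 12.17, 11.99 and 11.83 in NASH against 11.03, 11.05, 10.80 and 10.93 in tumours, a difference of -1.04 ± 0.10 with no overlap (adjusted p = 1.3e-08). Atp5g1 fell by 0.54 ± 0.15 (adjusted p = 0.0042). Neither Atp5s (-0.14 ± 0.24) nor Atp5sl (-0.36 ± 0.15), the genes that are no longer counted as subunits, passed the threshold.

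Transcript length was taken as the median over all protein-coding GENCODE transcripts of a gene, which can differ from the transcript made in the tissue. By it, Ndufs1 (651 nt) stood in the shortest class and Ndufb2 (2413 nt) in the longest. The median difference was -0.71 over 38 members under 700 nt, -0.75 over 31 members up to 1500 nt and -0.66 over 6 longer ones. Other genes of these classes had medians of 0.01, -0.05 and 0.08.

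**Figure D2:**
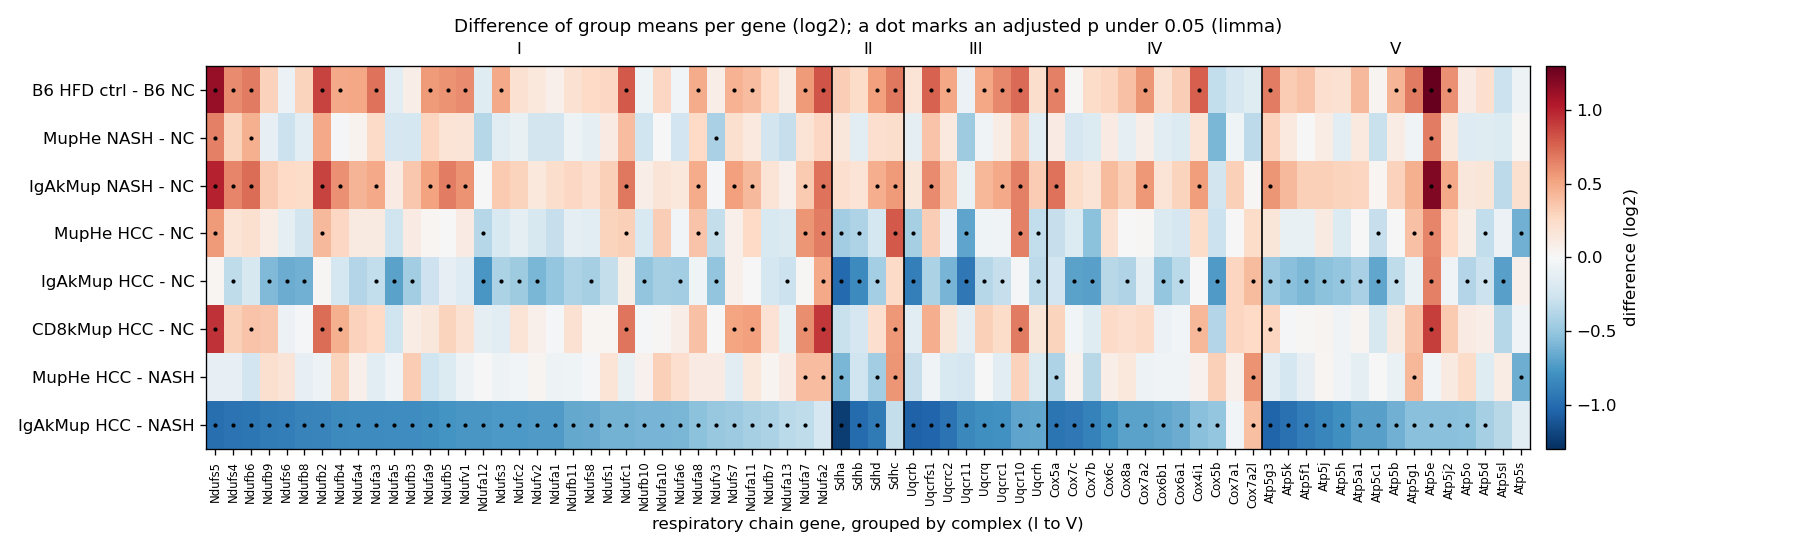
Difference of group means (log2, colour) for 74 of the 75 tested members (x axis, grouped by complex I to V) in 8 comparisons (y axis); dots mark adjusted p under 0.05 in limma. The row of IgAkMup HCC minus NASH holds 68 of these genes that fell and Cox7a2l that rose, while the row of MupHe HCC minus NASH holds 5 that rose and 4 that fell.

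Against other groups the median difference of IgAkMup tumours was closer to 0 and also below it. Against IgAkMup NC livers, 42 members were lower in IgAkMup tumours and 3 higher (22.1% and 22.9% of all tested genes), with a median of -0.38. The 3 that were higher were Ndufa2 (0.49 ± 0.13), Cox7a2l (0.41 ± 0.10) and Atp5e (0.66 ± 0.12), the epsilon subunit of the synthase stalk. When MupHe NASH took the place of IgAkMup NASH, which changes the name tag as well as the genotype, 35 members fell and 1 rose (19.5% and 20.5% of all tested genes), with a median of -0.31.

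CD8kMup tumours, which share their column tag with IgAkMup tumours, had higher levels of the chain. In this comparison, added after seeing the data, 66 of 75 members were lower in IgAkMup tumours and 0 higher (11.8% and 11.2% of all tested genes), with a median of -0.54. The means over the members lay between 9.71 and 9.74 in CD8kMup tumours, above all 4 IgAkMup tumours. Uqcrfs1 stood at 10.92, 10.91 and 10.95 in CD8kMup tumours and was lower in IgAkMup tumours by 0.87 ± 0.18 (-0.87, adjusted p = 0.0012). With these tumour groups fitted alone, 14 members stayed past the threshold, all lower, and 68 of 75 had an unadjusted p under 0.05.

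Many genes that work beside the chain moved with it in IgAkMup tumours against NASH, where 20.7% of all tested genes fell and 23.2% rose. Of 14 complex I assembly factors, 11 fell (median -0.72), among them Ndufaf4 (-1.01 ± 0.15) and Ndufaf6 (-0.99 ± 0.12). In the citric acid cycle list 13 of 19 fell (median -0.75), such as Dlst (-1.12 ± 0.20), a subunit of the 2-oxoglutarate dehydrogenase complex. Of 21 complex IV assembly factors 12 fell, of 19 electron carriers and entry enzymes 13 fell, such as Etfdh (-1.16 ± 0.19), and of 28 proteins of the small mitochondrial ribosome 17 fell. None of these 5 lists had a gene that rose. Of 15 outer membrane and import genes, 5 fell and 2 rose. Ndufa4l2, a hypoxia-linked relative of Ndufa4, rose by 0.68 ± 0.16 (adjusted p = 0.0015).

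Regulators of mitochondrial genes were divided. Tfam, which packages mitochondrial DNA and takes part in its transcription, stood at 8.84, 8.95 and 8.79 in IgAkMup NASH and at 8.36, 8.30, 8.15 and 8.17 in IgAkMup tumours. It fell with no overlap, by 0.62 ± 0.09 (-0.62, adjusted p = 3.0e-06). Ppargc1a, the coactivator PGC-1 alpha, did not pass in IgAkMup (0.25 ± 0.18, adjusted p = 0.26). It fell in MupHe tumours against MupHe NASH (-0.58 ± 0.18, adjusted p = 0.016), groups that differ in column tag. The part of these regulators in the levels of the chain was not tested. Esrra (-0.15 ± 0.18) and Nrf1 (0.26 ± 0.12) did not pass in IgAkMup, and Gabpa, the ETS factor of the GABP complex, fell by 0.28 ± 0.11 (adjusted p = 0.047).

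Cell type markers moved in the same tumours, and their part in the result was not tested. Of all tested genes, 20.7% fell and 23.2% rose in IgAkMup tumours against NASH. Of 8 hepatocyte markers, 5 fell in IgAkMup tumours against NASH (median -1.09). Their summed level, on a log2 scale, ran from 19.06 to 20.40 in these tumours, 19.59 to 19.96 in IgAkMup NASH and 19.13 to 19.38 in CD8kMup tumours. That sum was mostly Alb, whose lowest value over all libraries was 18.24, against a highest value of 17.20 for the next marker, Apoa1. It therefore says little about the other hepatocyte markers. Of 6 Kupffer cell markers, all 6 fell, with summed levels of 7.15 to 11.05 in the tumours and 11.58 to 11.79 in NASH. Of 7 recruited macrophage markers, 6 rose (9.91 to 11.12 against 8.73 to 9.02). Of 6 cholangiocyte markers 2 rose, with summed levels of 12.08 to 15.28 in the tumours and 10.61 to 10.99 in NASH. That sum was mostly Spp1, with a highest value of 15.24 over all libraries, against 8.44 for the next marker, Cd24a. Of 3 tested brown adipocyte markers (Cidea, Ppargc1b and Elovl3) 2 fell, and the summed level of that list was 6.27 to 7.35 against 11.01 to 11.43. Ucp1 was not among the tested genes, and whether brown fat was present was not tested. In NASH that sum was mostly Elovl3, whose highest value over all libraries was 12.53, against 9.25 for Ucp1 and 7.88 for Cidea. T cell markers (5.72 to 7.63 against 5.51 to 5.63) and endothelial markers (10.74 to 11.47 against 10.57 to 10.67) were higher in summed level in every tumour. The T cell markers were low. Lck had the highest value over all libraries, 6.87, against 4.92 for the next, Cd3g, and 3.43 for Cd2. The ranges of B and plasma cell, fibroblast and adipocyte markers overlapped. Against CD8kMup tumours, 3 of the 8 hepatocyte markers and 5 of the 6 Kupffer cell markers were lower in IgAkMup tumours (11.8% of all tested genes). No hepatocyte, Kupffer cell or recruited macrophage marker was listed at 0 in any library. This does not show that each was detected there, because rlog values are shrunk where counts are low.

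MupHe tumours did not share a direction. Against MupHe NASH, 6 members rose and 4 fell (16% and 14.7% of all tested genes), and the median was -0.03. The members that rose included Cox7a2l (0.58 ± 0.10), Sdhc (0.57 ± 0.14), Atp5g1 (0.43 ± 0.15), Ndufa7 (0.40 ± 0.11) and Ndufa2 (0.40 ± 0.13). Those that fell were Atp5s (-0.63 ± 0.24), Sdha (-0.60 ± 0.16), Sdhd (-0.45 ± 0.12) and Cox5a (-0.40 ± 0.12). These groups differ in column tag. Against IgAkMup NASH, which shares the tag SS, 1 rose and 43 fell (15.1% and 14.1% of all tested genes). With MupHe HCC and MupHe NASH fitted alone, Cox7a2l was the only member that passed. When MupHe HCC 4 was left out, 3 rose and 14 fell. When MupHe HCC 3 was left out, 13 rose and 3 fell, and when MupHe NASH 2 was left out, 3 rose and 3 fell. Of the 8 hepatocyte markers 3 fell and of the 6 Kupffer cell markers 5 fell in MupHe tumours against NASH.

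The 4 MupHe tumours lay far apart from each other. The mean over the members was 9.57 in MupHe HCC 2, 9.23 in 3, 9.76 in 4 and 9.38 in 7, while the MupHe NC livers lay between 9.46 and 9.52. Uqcrfs1 read 11.07 and 11.28 in tumours 2 and 4 and 10.09 and 10.32 in tumours 3 and 7, and Atp5a1 read 13.21 and 13.49 against 12.56 and 12.57. Relative to the mean of the NC livers of the same genotype, the median over the members was 0.08 in tumour 2, -0.24 in tumour 3, 0.28 in tumour 4 and -0.20 in tumour 7. The same median was between -0.43 and -0.24 in the 4 IgAkMup tumours and between 0.14 and 0.17 in the 3 CD8kMup tumours.

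**Figure D3:**
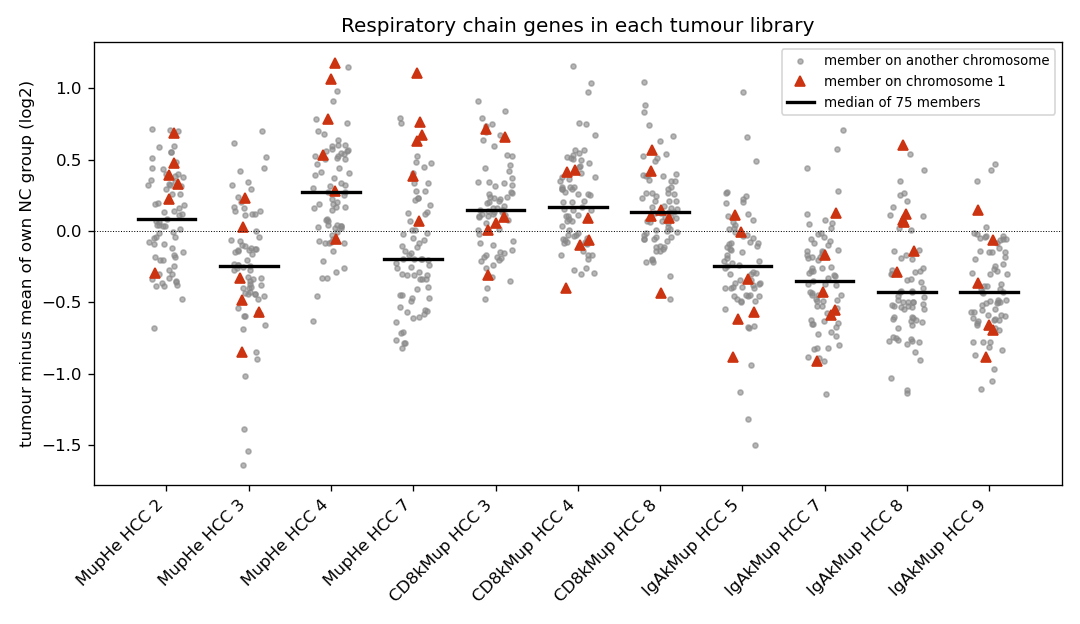
Difference of each tested member from the mean of the NC livers of the same genotype (y axis, log2) in each of 11 tumour libraries (x axis); grey points are members on other chromosomes, red triangles those on chromosome 1, bars the median of 75 members. The bars lie below 0 in all 4 IgAkMup tumours, above 0 in all 3 CD8kMup tumours and on both sides of 0 among the 4 MupHe tumours.

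Cox7a2l was the member that rose in both tumour comparisons with NASH. In MupHe it read 9.60, 9.73, 9.33 and 9.53 in tumours against 8.90, 8.99 and 9.02 in NASH livers. The groups did not overlap, and the adjusted p was 0.0001. MupHe NASH was low among the groups for this gene: MupHe NC livers read 9.34, 9.28 and 9.32, near the lowest MupHe tumour. Sdha, Sdhd and Cox5a fell in both comparisons. In MupHe tumours 2, 3, 4 and 7, Sdha read 11.89, 11.12, 11.93 and 11.30 against 12.12, 12.17 and 12.19 in NASH.

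**Figure D4:**
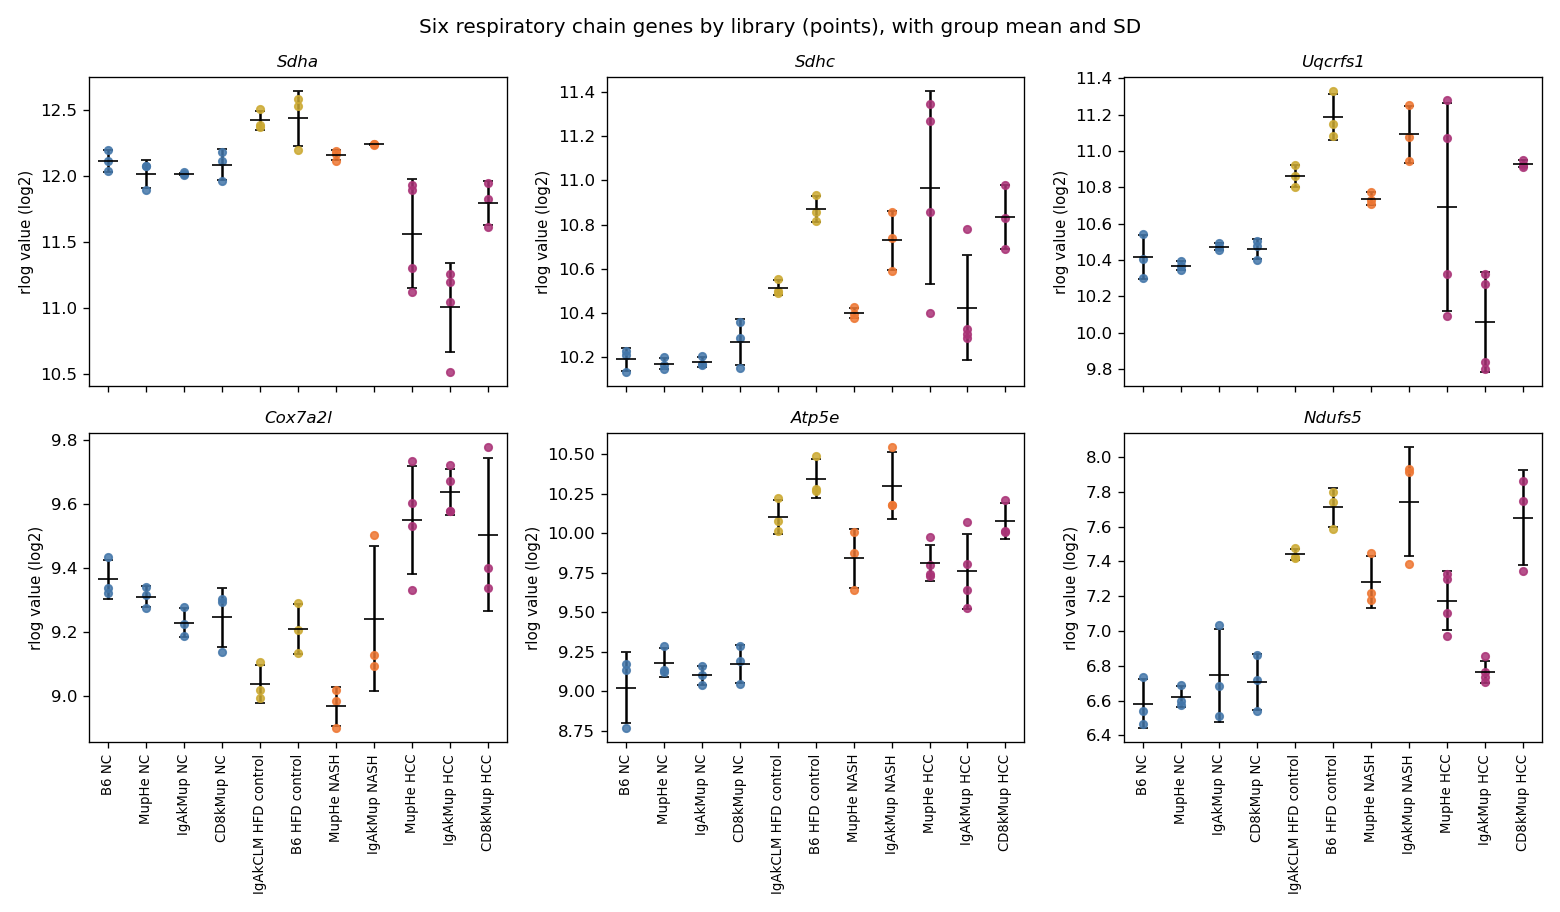
rlog values (log2, y axis, not starting at 0) of Sdha, Sdhc, Uqcrfs1, Cox7a2l, Atp5e and Ndufs5 in 11 groups (x axis); points are libraries, bars group means with SD. Sdha is lower in all 8 MupHe and IgAkMup tumours than in every NASH library, and Atp5e is lower in all 12 NC libraries than in every HFD-fed library.

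A direct comparison of the tumours gave 29 members lower in IgAkMup than in MupHe tumours and 0 higher (6.01% and 4.12% of all tested genes), with a median of -0.31. Uqcrfs1 (-0.63 ± 0.16) and Atp5g3 (-0.51 ± 0.09) were among them. Whether the step from NASH to tumour differed between the genotypes was tested as an interaction, which was lower in IgAkMup for 59 members and higher for 0 (5.2% and 4.82% of all tested genes), with a median of -0.69. It sets a pair of groups with the same tag against a pair with different tags. Both results rest on the spread being shared over all 11 groups: with the compared groups fitted alone, 0 members passed in limma in either test, and 16 and 60 had an unadjusted p under 0.05. The first count was 48 without MupHe HCC 3 and 10 without MupHe HCC 4. The interaction gave 36 without MupHe NASH 2 and 30 without IgAkMup NASH 2.

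Between CD8kMup and MupHe tumours, 3 members were higher in CD8kMup and 0 lower (0.705% and 0.616% of all tested genes): Sdhd (0.56 ± 0.12), Uqcrh (0.51 ± 0.12), the hinge protein of complex III, and Cox5a (0.61 ± 0.12). Of 75 differences, 6 were below 0, and the median was 0.24. The count was 28 without MupHe HCC 4, 9 without MupHe HCC 2, and 0 without MupHe HCC 7, CD8kMup HCC 4 or CD8kMup HCC 8, and 0 with these groups alone (8 at an unadjusted p under 0.05). The step from NC liver to tumour, compared between CD8kMup and MupHe as an interaction, gave 0 members in limma (0.0486% of all tested genes), 9 at an unadjusted p under 0.05, and a median of 0.17.

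Members on chromosome 1 were set beside the other genes of that chromosome in each tumour. There are 6 of them, among them Ndufa10, Ndufb3, Ndufs1, Cox5b and Sdhc (chr1:171129157-171150640). Relative to the NC livers of the same genotype, the 6 members had a median of 0.65 in MupHe HCC 7, where 714 other genes of chromosome 1 had 0.52 and all members -0.20. In MupHe HCC 4 the 6 members had 0.66 and the other genes of the chromosome 0.28, and in MupHe HCC 2 the values were 0.36 and 0.21. In MupHe HCC 3 they were -0.41 and 0.03. In IgAkMup HCC 8 the 6 members stood at 0.07 and the other genes at 0.45, while in IgAkMup HCC 5, 7 and 9 the members stood at -0.45, -0.49 and -0.51 and the other genes at 0.02, 0.06 and 0.00. In CD8kMup HCC 3, 4 and 8 the 6 members stood at 0.08, 0.01 and 0.12 and the other genes at 0.12, 0.01 and 0.13.

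**Figure D5:**
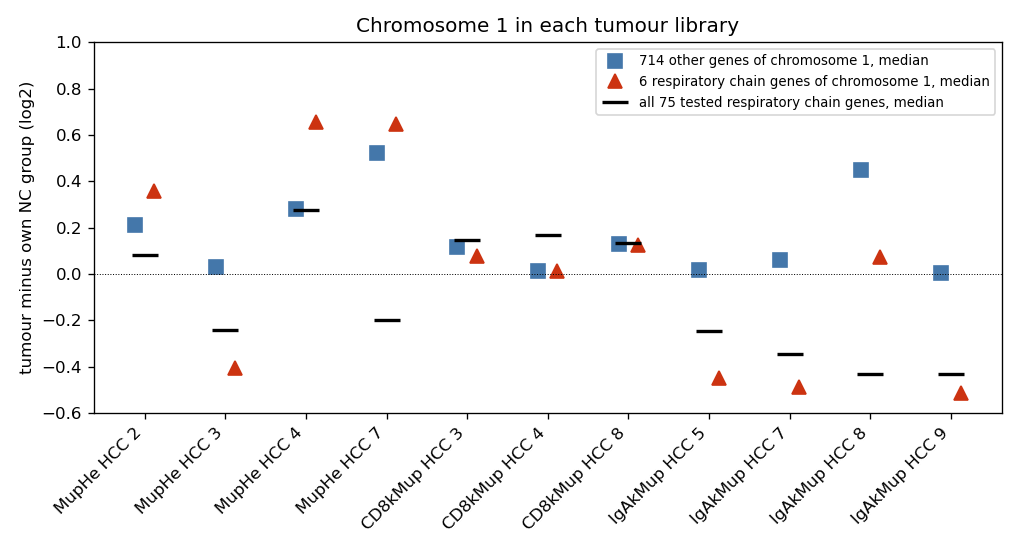
Median difference from the NC livers of the same genotype (y axis, log2) in 11 tumour libraries (x axis) for 714 other genes of chromosome 1 (squares), the 6 respiratory chain genes there (triangles) and all 75 tested members (dashes). Squares are highest in MupHe HCC 7 (0.52) and IgAkMup HCC 8 (0.45), and in both libraries the triangle lies above the dash.

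Sdhc was also higher in groups outside MupHe. In CD8kMup tumours it was above CD8kMup NC livers by 0.57 ± 0.15 (adjusted p = 0.0058), with 0.71, 0.42 and 0.57 in tumours 3, 4 and 8, and in B6 HFD control livers it was above B6 NC by 0.68 ± 0.15 (adjusted p = 0.0024). It read 10.86, 10.40, 11.35 and 11.27 in MupHe tumours 2, 3, 4 and 7, and 10.43, 10.38 and 10.39 in MupHe NASH. Copy number was not measured. When each library was centred on the median of each chromosome, an alternative added after seeing the data, MupHe HCC against NASH gave 4 members that rose and 2 that fell, and IgAkMup HCC against NASH gave 1 and 71.

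Chromosome 13 holds 6 members, among them Sdha, Uqcrb, Uqcrfs1 and Ndufs4. Relative to NC livers of the same genotype, they had medians of -0.81, -0.45, -0.69 and -0.74 in IgAkMup HCC 5, 7, 8 and 9. The 434 other genes there had -0.49, -0.09, -0.19 and -0.13. In MupHe HCC 2, 3, 4 and 7 the members had 0.09, -0.335, 0.12 and -0.47 and the other genes 0.08, -0.07, 0.02 and -0.26. In CD8kMup HCC 3, 4 and 8 these were -0.27, 0.07 and 0.04, and -0.17, -0.05 and 0.01. Members on the X chromosome, Ndufa1, Ndufb11 and Cox7b, had a median of -1.38 in MupHe HCC 3, where 366 other genes of that chromosome had -0.37. In MupHe HCC 7 the values were -0.76 and -0.13, and in MupHe HCC 4 they were 0.55 and 0.23. In MupHe HCC 2 they were 0.32 and 0.25. The X members stood at -0.39, -0.26, -0.74 and -0.77 in IgAkMup HCC 5, 7, 8 and 9. There the other X genes stood at 0.04, 0.05, -0.12 and 0.02. In CD8kMup HCC 3, 4 and 8 the members stood at 0.16, -0.085 and -0.11 and the other genes at 0.14, 0.01 and 0.075.

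Against the NC livers, MupHe tumours had 11 members higher and 10 lower (20.6% and 19.5% of all tested genes), with a median of 0.00. Uqcr11 of complex III differed by -0.68 and Sdhc by 0.80. The balance of this count moved with single libraries: it was 8 higher and 23 lower without MupHe HCC 4, 11 and 12 without MupHe HCC 2, and 7 and 4 without MupHe NC 2. With these groups alone it was 6 and 1. CD8kMup tumours had 15 members higher than CD8kMup NC livers and 0 lower (16.8% and 17% of all tested genes), with a median of 0.16. Ndufs5 read 7.34, 7.86 and 7.75 in these tumours and 6.54, 6.86 and 6.72 in the livers, a difference of 0.94 ± 0.15 with no overlap (adjusted p = 2.4e-05). Ndufa2 (0.92 ± 0.14) and Atp5e (0.90 ± 0.13) were also higher. Fitted alone, these groups gave 22 higher and 3 lower.

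No member passed between livers with steatohepatitis and fatty livers. Between MupHe NASH and IgAkCLM HFD control, 0 of 75 passed in limma (0.559% of all tested genes did), 13 had an unadjusted p under 0.05, and 72 differences were below 0, with a median of -0.18. With these groups alone 3 members were lower, and with library weights 19 were lower. Between IgAkMup NASH and B6 HFD control, 0 passed (0.251%), 0 had an unadjusted p under 0.05, and the median was -0.05. Each of these comparisons is within a column tag and between genotypes.

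The HFD-fed livers tagged SS had higher levels of part of the chain than NC livers. In B6 HFD control against B6 NC, 32 members were higher and 0 lower (9.59% and 11% of all tested genes), with a median of 0.32. Atp5e led, at 10.26, 10.28 and 10.48 against 8.77, 9.17 and 9.13, a difference of 1.32 ± 0.13 with no overlap (adjusted p = 6.7e-08). Ndufs5 differed by 1.13 ± 0.15 (adjusted p = 5.4e-06). In IgAkMup NASH against IgAkMup NC, 26 were higher and 0 lower (5.53% and 7.39%), with a median of 0.31, and 13 without IgAkMup NASH 2. Other genes with a median GENCODE transcript length under 700 nt had medians of 0.11 and 0.13 in these comparisons, beside 0.28 and 0.31 for members of that class.

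With the groups tagged Tri in their place these counts were 5 higher and 1 lower for the HFD control (0.94% and 1.37% of all tested genes), and 1 and 1 for NASH (0.592% and 0.665%). MupHe NASH against MupHe NC gave 3 higher and 1 lower (0.948% and 0.981%), and 2 members when any 1 library of these groups was left out. With these groups alone it gave 11 higher and 8 lower. The members passing there were Atp5e (0.66 ± 0.13), Ndufs5 (0.66 ± 0.15) and Ndufb6, which were higher, and Ndufv3, which was lower. Added after seeing the data, IgAkMup NASH against MupHe NASH gave 16 higher and 0 lower (0.567% and 2.45%), with a median of 0.39. This count was 1 with quantile normalization, 70 with library weights and 26 with these groups alone. Leaving out IgAkMup NASH 6 gave 36, MupHe NASH 6 gave 3 and MupHe NASH 1 gave 2, and the omission of library 2 of either group or of IgAkMup NASH 3 gave 0. Also added, B6 HFD control against IgAkCLM HFD control gave 0 in limma (5.16% of all tested genes), with 30 at an unadjusted p under 0.05 and 29 with library weights, all higher in B6. Tag and group cannot be told apart here.

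B6 NC 1 had the highest level of muscle transcripts, and single libraries of other NC groups held some. The summed level of 8 skeletal muscle markers reached 17.31 in B6 NC, 10.43 in MupHe NC and 6.57 in CD8kMup NC, and lay between 4.26 and 4.79 in the HFD-fed groups. Mb, myoglobin, was at 15.00 there and at 4.85 in MupHe NC 1, with a highest value of 3.86 in the remaining libraries. Cox7a1, the muscle and heart form, read 4.91 in B6 NC 1, the highest of 35 libraries, and 3.69 and 3.92 in the other B6 NC livers. The muscle forms Cox6a2 (3.05) and Cox8b (1.08) were also highest in B6 NC 1. Counts for B6 HFD control against B6 NC lay between 24 and 33 when any library was left out.

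No member passed between genotypes in the livers labelled healthy. MupHe NC against B6 NC, IgAkMup NC against MupHe NC and CD8kMup NC against MupHe NC each gave 0 of 75 in limma (0.0486%, 0.0162% and 0.0162% of all tested genes), with 1, 1 and 0 at an unadjusted p under 0.05 and medians of -0.07, 0.03 and 0.08.

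The 8 members under the level needed for testing were mostly forms of other tissues. Cox7b2 and Cox8c were listed at 0 in every library. Cox4i2, Cox6a2, Cox6b2 and Cox8b had means of 0.97, 1.89, 2.10 and 0.31, and their counterparts Cox4i1, Cox6a1, Cox6b1 and Cox8a were all tested. Atp5g2 (mean 1.26) and Atp5l (mean 2.87) are subunits used in many tissues, and near-identical copies of such genes can take up reads, so their levels are uncertain. Levels of different genes were not ranked, because the values are not given per length.

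Over the 11 group means, the genes outside the members whose pattern was closest to the mean of the members were Poldip2 (Pearson r = 0.986), Mrpl1 (0.977), Aurkaip1 (0.968) and Gcsh (0.965). This is a description over groups that share libraries and normalization.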

How the data were processed

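The authors deposited 1 table of regularized log2 (rlog) values for 24511 genes and 41 libraries of polyA RNA (TruSeq Stranded mRNA, 100 ng of RNA, per the labels' protocols). Such log2 values are shrunk where counts are low. The submitters' processing notes list STAR with Cuffdiff (29 HFD samples) or with HOMER and DESeq2 (12 NC samples), and mm10. Tool roles, versions and the origin of the rlog values are not stated there. Columns were matched to groups by name, and 6 columns that matched more than 1 group were not used. HFD libraries are numbered as in their column names.

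Genes with a mean of at least 3 were kept (12337). All 11 groups entered 1 limma fit (limma 3.58.1, R 4.3.3; group means, eBayes with trend), adjusted by Benjamini and Hochberg with a threshold of 0.05, two-sided; the script was tested on simulated data. The letters of the promoter motifs were set with promoter matches known: shorter NRF1 and YY1 forms replaced longer ones, which had matched fewer members. Figures used matplotlib 3.10.9. Members, lists and comparisons were chosen with earlier results of these data known. Full values were given for catalytic or core subunits, tissue forms, and the 5 members with the largest difference in each direction among those past the threshold; other genes came from lists (the 3 with the largest difference per direction), and Ppargc1a, Esrra, Nrf1, Gabpa and Tfam. In the NC groups, 18 same-numbered pairs of libraries correlated between -0.21 and 0.23 in their deviations from group means, with 3 over 0.1, so the numbers were not taken as pairs. Alternatives were other filters, scalings, weights, groups fitted alone, exchanged groups and libraries left out. Values of 1 member and 1 other gene are not reported here; the member is kept in counts and medians.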

Additional observations from a re-analysis of the deposited data

Results flagged for a closer look

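Single libraries far from the other 3 of their group were looked for in 150 sets of 4 tumour libraries, and 9 were found, where chance gives about 1 in 20 sets. In IgAkMup HCC 8, chromosome 1 members were high: Ndufa10 at 9.984 (others 9.244 to 9.35), Sdhc at 10.78 (10.286 to 10.324) and Cox5b at 8.981 (8.357 to 8.391). In IgAkMup HCC 9, Ndufb7 was low at 8.409 (others 8.747 to 8.807) and Cox6a1 at 10.296 (10.563 to 10.606). In MupHe HCC 3, Cox6c was low at 9.663 (10.563 to 10.739) and Atp5sl high at 8.03 (7.577 to 7.639). Ndufs8 was low at 8.68 in MupHe HCC 7 (8.887 to 8.911), and Uqcr10 was high at 10.463 in MupHe HCC 4 (9.757 to 9.87).

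The step from NASH to tumour differed between genotypes for 59 members, all lower in IgAkMup than in MupHe, by the interaction term of limma, and for 0 with the 4 compared groups fitted alone (60 at an unadjusted p under 0.05).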

How the results depend on the processing

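Of 329 alternative counts over 20 comparisons, 268 lay within 1.5 times the main count with the same balance of directions, or were 0 like the main count. Comparisons with a main count of 0 add many of these, such as all 15 alternatives of MupHe NC against B6 NC. For them no direction could be compared. The fall in IgAkMup tumours against NASH gave 61 to 71 members with 1 library left out in turn and 36 against MupHe NASH, and against NC 33 to 46. With the compared groups alone, counts were 1 for MupHe HCC against NASH, 7 against NC, 25 for CD8kMup HCC against NC, 3 for MupHe NASH against IgAkCLM HFD control, 19 for MupHe NASH against NC, 14 for IgAkMup against CD8kMup HCC, 26 for IgAkMup against MupHe NASH, and 0 for IgAkMup against MupHe HCC, CD8kMup against MupHe HCC and the interaction. Library weights gave 38 for CD8kMup HCC against NC, 19 for MupHe NASH against IgAkCLM HFD control, 27 and 56 for MupHe and IgAkMup NASH against NC, 13 for IgAkMup against MupHe HCC, 0 for CD8kMup against MupHe HCC, 70 for IgAkMup against MupHe NASH, and 29 for B6 against IgAkCLM HFD control. Quantile normalization gave 25, 13, 5, 24 and 1 for CD8kMup HCC against NC, IgAkMup and CD8kMup against MupHe HCC, the interaction, and IgAkMup against MupHe NASH. Median centring turned the balance of MupHe HCC against NC (21, with 9 higher and 12 lower). Exchanging groups gave 44 (1 higher, 43 lower) for MupHe HCC against IgAkMup NASH, with Ndufa2 at -0.0292 and Atp5g1 at -0.1198, and 6 and 2 for B6 HFD control and IgAkMup NASH against NC. Without the 3 tumours that stand apart, MupHe HCC against NASH gave 17 and CD8kMup against MupHe HCC 6. Chromosome centring gave 6 and 0 for the same comparisons.

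With 1 library left out in turn, counts ran from 6 to 17 for MupHe HCC against NASH (17 without MupHe HCC 4, turned to 3 higher and 14 lower), 11 to 31 against NC (31 without MupHe HCC 4 and 23 without MupHe HCC 2, both with more lower), 10 to 48 for IgAkMup and 0 to 28 for CD8kMup against MupHe HCC, 30 to 69 for the interaction, 2 to 2 for MupHe NASH against NC, 13 to 31 for IgAkMup NASH against NC, 0 to 36 for IgAkMup against MupHe NASH, and 0 to 1 for B6 against IgAkCLM HFD control. The cause was not tested. With the replicate number as a block, the 3 comparisons among NC groups gave 0 members each, as without it. Of 456 alternative values of single members, 400 kept direction and side of the threshold, 54 lost the call and 2 changed sign. Depth is unknown, so the limits it sets cannot be given.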
